A study of Homo sapiens with 6 samples.

Results

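Replication-independent histone variants are histones that are made outside the burst of histone synthesis in S phase. The set described here was chosen by name: H2AZ1, H2AZ2, H2AX, H3-3A, H3-3B, H1-10, MACROH2A1, MACROH2A2 and CENPA, which are 9 of the 60664 genes of the table. The measurement was RNA-seq of polysomal RNA, the RNA that sediments with several ribosomes in a sucrose gradient, from K562 cells, a human erythroleukemia cell line. The 3 RNH1 WT samples, numbered WT1 to WT3, were compared with 3 RNH1 KO samples, numbered KO1 to KO3, in which the gene for the ribonuclease inhibitor RNH1 had been disrupted with CRISPR/Cas9. Cells of both genotypes were treated with cycloheximide, which holds ribosomes on mRNA. The study's methods call the 3 samples of a genotype independent replicates, without saying whether they were separate cultures or KO clones. The p-values therefore measure the spread between these samples, and whether it includes that between clones is not known.

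Most histone protein is made from replication-dependent genes, whose mRNAs have no introns in most cases and end in a stem-loop in place of a poly(A) tail. Most variant genes are expressed outside S phase too, are spliced and have mRNAs with poly(A) tails. Variant histones replace the replication-dependent ones at particular places: H3.3 and H2A.Z at active and regulatory chromatin, CENP-A at centromeres, macroH2A at silent chromatin, while H2AX is phosphorylated around DNA breaks.

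The difference in how these mRNAs end can be read from the annotated transcripts of GENCODE 44 on GRCh38. A histone stem-loop consensus after the stop codon was found in the canonical transcripts of 67 of 67 replication-dependent genes, but in 1 of the 9 variants, H2AX, where it begins 49 bases after the stop codon. Searched over their whole length, 0.421% of all 19942 canonical protein-coding transcripts held it. The stem-loops of H2AX (chr11:119094893-119094918, minus strand), H2AC11 (chr6:27133510-27133535, plus strand), H3C2 (chr6:26031592-26031617, minus strand) and H1-2 (chr6:26055740-26055764, minus strand) are shown because H2AX is the only variant with this element, with stem and loop in capitals.
H2AX: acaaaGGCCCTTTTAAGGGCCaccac
H2AC11: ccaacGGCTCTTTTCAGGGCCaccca
H3C2: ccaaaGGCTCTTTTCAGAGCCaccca
H1-2: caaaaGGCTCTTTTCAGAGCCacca

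A poly(A) signal hexamer, AATAAA or ATTAAA on the transcript strand, was found in the last 50 bases of 7 of the 9 variant transcripts. The same search found it in 3 of 67 replication-dependent transcripts and in 77.5% of all canonical protein-coding transcripts. H2AZ2 and MACROH2A1 had neither spelling in that window. H2AX held both the stem-loop and, at the end of a longer 3′ UTR of 1089 bases, the hexamer. The sites of H2AX (chr11:119093881-119093908, minus strand), H2AZ1 (chr4:99948090-99948117, minus strand), H3-3A (chr1:226071982-226072009, plus strand), H3-3B (chr17:75776436-75776463, minus strand), H1-10 (chr3:129314775-129314802, minus strand) and CENPA (chr2:26794553-26794580, plus strand) are shown with the hexamer in capitals.
H2AX: gactaattttATTAAAggattgtttttt
H2AZ1: ggataagttcAATAAAggtcatatccca
H3-3A: attaaaatacATTAAActatacctgctt
H3-3B: atgagactaaAATAAAatttttgaagtt
H1-10: ttttgggcacAATAAAgcgtttaaacct
CENPA: gtagagagatAATAAAaatcaaaatatt

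Reads in genes numbered 34908202 to 46256928 per sample. Values are normalized counts, that is, the gene counts after division by 1 size factor per sample. RNH1 itself was at 4566, 2857 and 1865 in WT1 to WT3 and at 1058, 1144 and 997 in KO1 to KO3, and the genotypes did not overlap (log2 fold change −1.44, SE 0.26, adjusted p = 0.000338 by limma). Fold changes are KO over WT on the log2(normalized count + 1) scale, and a gene was called lower or higher at a Benjamini-Hochberg adjusted p under 0.1 over the 16652 genes with a mean of at least 10. Of those genes, 48.2% were called, 4012 (24.1%) lower and 4010 (24.1%) higher. Scaling to library totals raised the median over all genes by 0.32 (log2) and changed the split to 2404 lower and 6691 higher. With upper-quartile scaling the median rose by 0.14 and the split was 3226 to 5095. Erythroid markers were present, with TFRC at 41045 to 60451 and GATA1 at 5292 to 9269 over the 6 samples, but the embryonic globin HBE1 was listed at 0 in every sample. Of 12 markers of other cell types MS4A1, CDH5 and KRT5 had 0 reads, and the summed level of the 12 was 4515 to 6676 in WT and 5196 to 5844 in KO, most of it from EPCAM. Among these markers PECAM1 was higher in KO (means 2.89 in WT and 417 in KO), and the part of the marker genes in the results below was not tested.

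Of the 9 variants 8 passed the filter on low values. H2AZ1, H3-3A, H3-3B and CENPA were lower in KO polysomal RNA, MACROH2A1 and H1-10 were higher, and H2AZ2 and H2AX did not pass the test. The 4 of 8 called lower and 2 of 8 called higher stand beside 24.1% and 24.1% of all genes tested. The median log2 fold change of the 8 was −0.50, against 0.03 for all genes tested. For 5 of the 8 the KO samples were all below the lowest WT sample (25.5% of all genes tested were so), for 1 they were all above the highest (25.6%), and in the other two the groups overlapped. In bulk polysomal RNA, less mRNA in the cell and a smaller share of it on polysomes cannot be told apart, since total RNA was not analysed here. Normalized counts are levels relative to the other genes of the same sample. The study reported reduced polysome levels in RNH1 KO K562 cells, so lower and higher here do not give amounts per cell.

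**Figure D1:**
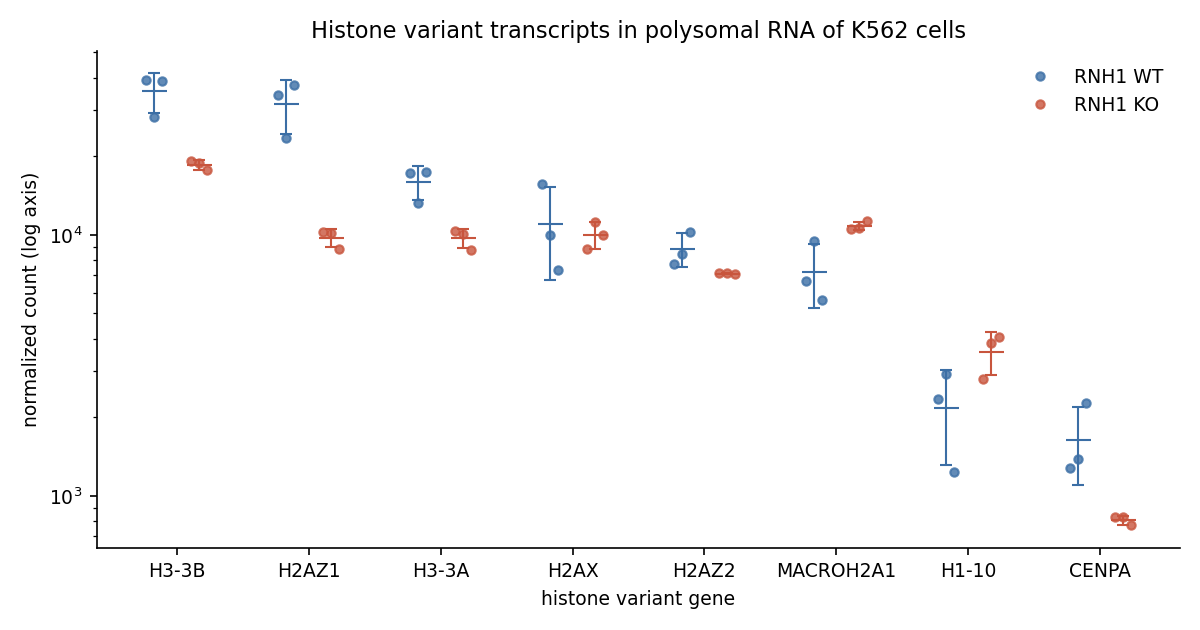
Normalized counts (log axis) of the 8 variant genes that passed the filter, with 1 point per sample, WT in blue and KO in red, and the mean and SD of each genotype as a bar. H2AZ1, H3-3A, H3-3B, CENPA and H2AZ2, which was not called, show 3 KO points below the 3 WT points. MACROH2A1 shows the reverse order, and the points of H2AX and H1-10 overlap between genotypes.

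H2AZ1, which encodes the main form of H2A.Z, a variant found around transcription start sites, had the largest change of the 8. The gene lies at chr4:99948086-99950355 on the minus strand and its canonical transcript of 866 nt has 5 exons. Its normalized counts were 34321, 23518 and 37548 in WT1 to WT3 and 10242, 10158 and 8836 in KO1 to KO3. The lowest WT sample, WT2, was still above all KO samples. The KO mean of 9745 ± 789 (SD, n = 3) was 30.6% of the WT mean of 31796 ± 7348 (SD, n = 3), with a log2 fold change of −1.68 (SE 0.22, adjusted p = 2.24e-05 by limma). Of all genes tested 95.5% had a higher log2 fold change.

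H2AZ2 encodes a second H2A.Z protein from a gene with 5 exons at chr7:44826791-44848087 on the minus strand and a canonical transcript of 3026 nt, of which 2523 nt are 3′ UTR. Normalized counts were 7732, 8452 and 10278 in WT1 to WT3 and 7131, 7127 and 7076 in KO1 to KO3. All 3 KO samples were below the WT samples, but by less than the spread among the WT samples. The log2 fold change was −0.30 (95% confidence interval −0.72 to 0.12, adjusted p = 0.244 by limma), and with library total scaling it was 0.03.

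The coding sequences of H2AZ1 and H2AZ2 differ at 76 of 387 bases, and 3 of 129 codons differ in the amino acid. The first 120 coding bases are spliced from exons within chr4:99949348-99950170 and chr7:44840974-44847971 (minus strand for both). They are shown with the 29 bases that differ in capitals, because such differences separate reads from the coding part. That part is 387 of 866 nt in the H2AZ1 transcript and 387 of 3026 nt in the H2AZ2 transcript.
H2AZ1: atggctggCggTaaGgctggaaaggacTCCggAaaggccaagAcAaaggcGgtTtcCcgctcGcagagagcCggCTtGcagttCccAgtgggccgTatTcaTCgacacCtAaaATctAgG
H2AZ2: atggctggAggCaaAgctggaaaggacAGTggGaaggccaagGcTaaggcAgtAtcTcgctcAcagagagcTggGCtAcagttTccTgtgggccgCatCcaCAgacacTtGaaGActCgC

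Within a sample the log2 ratio of H2AZ1 to H2AZ2 does not depend on the scaling, but effects of transcript length need not cancel. It was 2.15, 1.48 and 1.87 in WT1 to WT3 and 0.52, 0.51 and 0.32 in KO1 to KO3. The groups did not overlap, and the mean ratio was 1.83 ± 0.34 (SD, n = 3) in WT and 0.45 ± 0.11 (SD, n = 3) in KO, a difference of −1.38. The exact two-sided permutation test gave p = 0.1, also after adjustment over the pairs compared, which is the smallest p that 3 against 3 samples can give.

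H3-3A and H3-3B encode the same protein, H3.3, which replaces H3 in transcribed genes and at telomeres. H3-3A, at chr1:226061851-226072019 on the plus strand with 4 exons, has a canonical transcript of 1070 nt. H3-3B, at chr17:75776434-75785893 on the minus strand with 4 exons, has one of 2705 nt, of which 2161 nt are 3′ UTR. Their coding sequences differ at 88 of 411 bases, and none of the 79 codons that differ changes the amino acid (0 of 137). The first 120 coding bases (chr1:226064352-226064471, plus strand, and chr17:75779055-75779174, minus strand) are shown with the 24 that differ in capitals.
H3-3A: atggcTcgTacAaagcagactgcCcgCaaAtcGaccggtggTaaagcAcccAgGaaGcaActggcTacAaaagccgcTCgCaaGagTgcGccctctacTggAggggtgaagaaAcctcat
H3-3B: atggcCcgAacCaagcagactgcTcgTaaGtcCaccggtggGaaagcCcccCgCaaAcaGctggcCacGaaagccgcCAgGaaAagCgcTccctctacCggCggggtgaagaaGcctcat

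H3-3B had the most reads of the set. Its normalized counts were 39241, 28351 and 38698 in WT1 to WT3 and 19128, 18863 and 17682 in KO1 to KO3. The KO samples lay close together and below every WT sample, and their mean of 18558 ± 770 (SD, n = 3) was 52.4% of the WT mean of 35430 ± 6137 (SD, n = 3). The log2 fold change was −0.92 (SE 0.21, adjusted p = 0.00285 by limma). UNK lies on the opposite strand and overlaps H3-3B, and no source used here states whether reads were counted by strand. Genes on the opposite strand also overlap H2AZ1 (H2AZ1-DT), H3-3A (H3-3A-DT), H1-10 (H1-10-AS1) and MACROH2A1 (PITX1-AS1 and ENSG00000270021). Their part in the counts was not tested. UNK had a log2 fold change of −0.03 (adjusted p = 0.907 by limma) and mean counts of 1408 in WT and 1367 in KO.

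H3-3A was also lower, by less. Normalized counts were 17282, 13208 and 17375 in WT1 to WT3 and 10318, 10104 and 8760 in KO1 to KO3. Again WT2 was the lowest WT sample and the genotypes did not overlap. The KO mean of 9727 ± 845 (SD, n = 3) was 61.0% of the WT mean of 15955 ± 2380 (SD, n = 3), with a log2 fold change of −0.71 (SE 0.21, adjusted p = 0.0124 by limma). With library total scaling the log2 fold change was −0.38 (adjusted p = 0.152), which no longer passed.

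The processed pseudogene H3P6 is identical to the H3-3A coding sequence over all 411 bases (100%), and H3P16 is 99.3% identical to it, so reads from the coding part of H3-3A may be split among them. H3P6 had a mean of 2152 ± 748 (WT) and 988 ± 246 (KO) normalized counts (SD, n = 3 samples; log2 fold change −1.10, adjusted p = 0.00194 by limma). H3P16 had 324 ± 44.9 and 221 ± 40.6 (log2 fold change −0.56, adjusted p = 0.0672 by limma). Both counts were below those of H3-3A, but they come from 411 nt, against 1070 nt for the H3-3A transcript. Per length the gap is smaller, and how many reads of H3-3A were counted there was not tested.

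The log2 ratio of H3-3A to H3-3B was −1.18, −1.10 and −1.16 in WT1 to WT3 and −0.89, −0.90 and −1.01 in KO1 to KO3. Here too the groups did not overlap, but the means of −1.15 ± 0.04 and −0.93 ± 0.07 (SD, n = 3 each) differed by 0.21, less than the shift of the H2A.Z pair. The exact two-sided permutation test gave p = 0.1, the smallest it can give here.

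CENPA encodes the H3 variant that marks centromeres, from a gene with 5 exons at chr2:26764289-26801067 on the plus strand and a canonical transcript of 1389 nt. The gene had 1282, 1385 and 2268 in WT1 to WT3 and 828, 828 and 772 normalized counts in KO1 to KO3. WT3 stood above the other WT samples, and all KO samples lay below WT1, the lowest of them. The KO mean of 809 ± 32.1 (SD, n = 3) was 49.2% of the WT mean of 1645 ± 542 (SD, n = 3), with a log2 fold change of −0.98 (SE 0.22, adjusted p = 0.00236 by limma). SLC35F6 overlaps CENPA on the same strand and had a log2 fold change of −0.05 (adjusted p = 0.874 by limma).

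MACROH2A1 encodes macroH2A1, a histone with a large macro domain that is enriched on the inactive X chromosome and other silent chromatin. It lies at chr5:135334381-135399914 on the minus strand, and its canonical transcript of 1917 nt has 9 exons. Its normalized counts were 6653, 9440 and 5617 in WT1 to WT3 and 10561, 10653 and 11308 in KO1 to KO3. WT2, the lowest WT sample for H2AZ1, H3-3A and H3-3B, was the highest here, and all KO samples were above it. The KO mean of 10841 ± 408 (SD, n = 3) was 149.8% of the WT mean of 7237 ± 1978 (SD, n = 3), with a log2 fold change of 0.62 (SE 0.22, adjusted p = 0.0336 by limma). The call was lost without WT3 (0.45, adjusted p = 0.109) and without KO3 (0.59, adjusted p = 0.118).

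MACROH2A2, which encodes the related macroH2A2, had 1 read in WT1, 1 in WT3 and 0 in the other samples. A floor of 3 reads, which covers counting error only, corresponds to 2.58 to 3.40 normalized counts per sample. The gene was below it in every sample of both genotypes and was not tested. AIFM2 overlaps MACROH2A2 on the opposite strand, and whether reads were lost through this overlap was not tested.

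H1-10 encodes the linker histone H1.X, from a gene with a single exon at chr3:129314771-129316286 on the minus strand. Samples had 2358, 2928 and 1233 in WT1 to WT3 and 2798, 3855 and 4058 normalized counts in KO1 to KO3. WT2 was above KO1, so the genotypes overlapped, and WT3 was well below the others. The KO mean of 3570 ± 677 (SD, n = 3) was 164.3% of the WT mean of 2173 ± 862 (SD, n = 3), with a log2 fold change of 0.79 (SE 0.27, adjusted p = 0.027 by limma). Without WT3 the value was 0.42 (adjusted p = 0.151), which did not pass.

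H2AX encodes the H2A variant whose phosphorylated form marks DNA breaks, from a single exon at chr11:119093874-119095465 on the minus strand. Its normalized counts were 15598, 9965 and 7314 in WT1 to WT3 and 8837, 11189 and 10010 in KO1 to KO3. The KO samples all lay within the range of the WT samples. The log2 fold change was −0.07 (95% confidence interval −0.59 to 0.46, adjusted p = 0.854 by limma) and its sign depended on the scaling, so no direction is given.

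**Figure D2:**
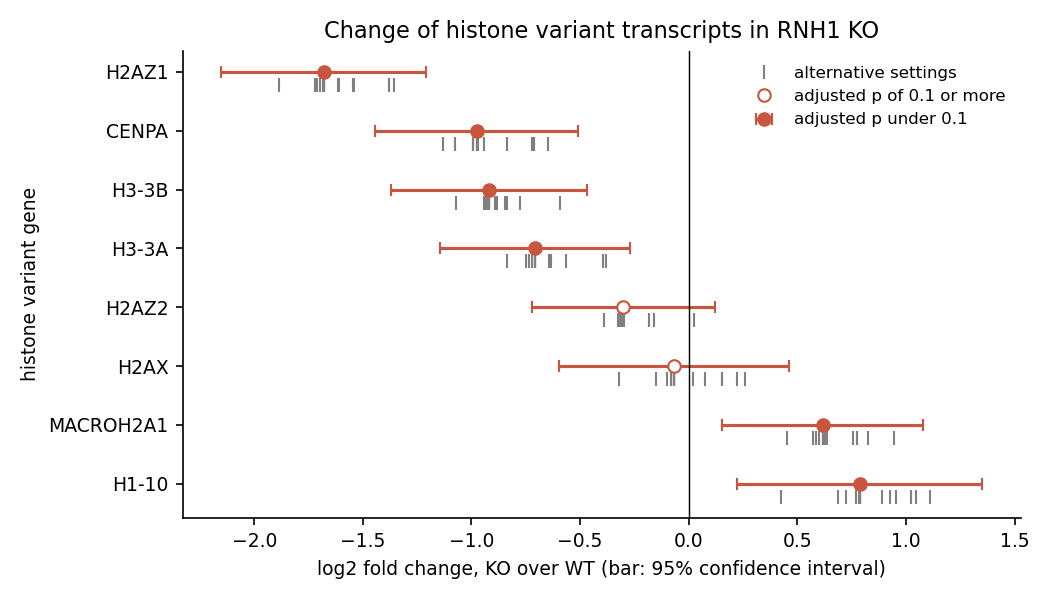
Log2 fold change, KO over WT, of the 8 variant genes with 95% confidence intervals, filled where the adjusted p was under 0.1, and grey ticks for the alternative settings. H2AZ1 lies farthest from 0 at −1.68, CENPA, H3-3B and H3-3A lie between −0.98 and −0.71, and the ticks of H2AX fall on both sides of 0.

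The WT samples varied more than the KO samples. Coefficients of variation of the 8 genes were 14.9% to 39.7% in WT and 0.433% to 18.9% in KO. H2AZ1, H3-3A and H3-3B were all lowest in WT2 among the WT samples, as were 53 of the 55 replication-dependent histone genes tested. The share of all reads taken by the 67 replication-dependent genes was 11.7%, 5.13% and 9.31% in WT1 to WT3, with a mean of 8.72% ± 3.34 (SD, n = 3), against a mean of 1.53% ± 0.17 in the KO samples (SD, n = 3). The 9 variants together took 0.248% ± 0.026 (WT) and 0.192% ± 0.014 (KO) of all reads (SD, n = 3 samples). Without WT2 the log2 fold change of each of the 4 lower variants still passed the test.

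Levels of different genes were compared per kilobase of canonical transcript, which holds only where that transcript is the main one expressed. Which transcripts were expressed was not tested. H2AZ1 was highest in both genotypes, at 36716 ± 8485 normalized counts per kb in WT and 11253 ± 911 in KO (SD, n = 3). In WT it was followed by H3-3A (14911) and H3-3B (13098), whose samples overlapped. H2AX (6884), MACROH2A1 (3775) and H2AZ2 (2915) came next, each overlapping with its neighbour. H1-10 (1433) and CENPA (1184) also overlapped, and MACROH2A2 was last. In KO the order was H2AZ1, H3-3A (9091), H3-3B (6860), H2AX (6289) and MACROH2A1 (5655), of which the last 3 overlapped with their neighbours. H1-10 (2355) and H2AZ2 (2350) could not be ordered, and CENPA (583) and MACROH2A2 followed. MACROH2A1 was below H3-3B in every sample of both genotypes.

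The replication-dependent genes give the comparison for these changes. Of 67 such genes 55 were tested, and 54 were lower in KO and 0 higher by limma (0 higher also at an unadjusted p under 0.05). H1-6, a testis linker histone, was the exception (log2 fold change 0.39, adjusted p = 0.408). The median log2 fold change was −2.36, with H4C11, an H4 gene, at the low end (−5.44), against −0.50 for the variants. H2AC11, H3C2 and H1-2, whose stem-loops are shown above, had log2 fold changes of −2.07, −1.91 and −1.62, while H2AX, which carries the stem-loop too, had −0.07. The count of H2AX is for the whole gene, so any transcripts ending at its stem-loop were not separated from any ending at its hexamer. Many replication-dependent genes have near-identical copies, so reads may be split among them and values of single genes are uncertain.

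**Figure D3:**
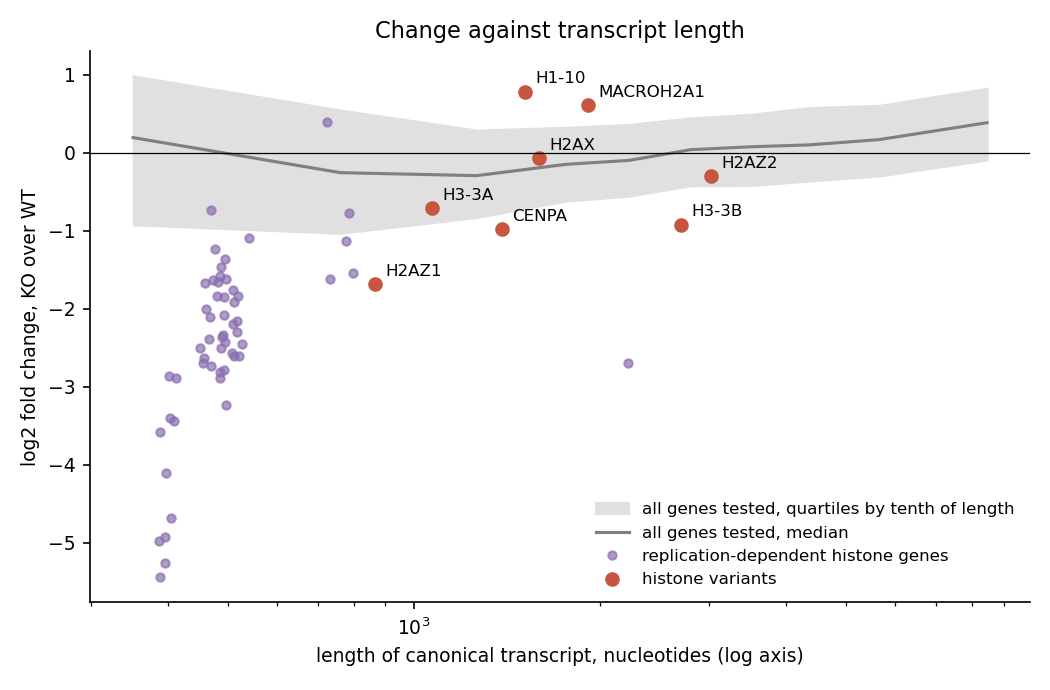
Log2 fold change, KO over WT, against the length of the canonical transcript in nucleotides (log axis) for the 8 variants (red), the 55 replication-dependent genes tested (purple) and, in grey, the median and quartiles of all genes tested in 10 length classes of near equal size. Most replication-dependent genes lie below the grey band at short lengths, H2AZ1, CENPA and H3-3B lie below it at their own lengths, and H1-10 and MACROH2A1 lie above it.

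The change over all genes varied with transcript length. The median log2 fold change was 0.20 in the shortest length class (median transcript 352 nt), −0.25 in the next (761 nt) and −0.29 in the one after it (1264 nt), and from there it rose with each class to 0.39 in the longest (8464 nt). Across the 8 variants, a description over few genes measured in the same samples, Pearson's r with log10 length was 0.36 and Spearman's rho was 0.43. After the trend on length had been subtracted in each sample, H2AZ1 had a log2 fold change of −1.38 (adjusted p = 8.13e-05 by limma) and H3-3B −0.89 (adjusted p = 0.00245). CENPA had −0.71 (adjusted p = 0.0229), H3-3A −0.39 (adjusted p = 0.066), MACROH2A1 0.77 (adjusted p = 0.0116) and H1-10 1.02 (adjusted p = 0.0138), so all 6 calls were kept in that fit. H3-3A lost its call when a term for the replicate number was added to it (adjusted p = 0.219).

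The variants made up a larger share of the H3 and of the H2A transcripts in KO than in WT. By limma H3-3A, H3-3B and H2AZ1 were lower in KO, while MACROH2A1, which counts among the H2A variants, was higher. The replication-dependent genes had a median log2 fold change of −2.36 over the 55 tested. What the larger shares came from was not tested. Of all per-length counts of H3 genes, which are the 13 H3C genes with H3-3A and H3-3B, the H3.3 genes held 1.88%, 3.92% and 3.03% in WT1 to WT3 and 8.18%, 9.68% and 8.95% in KO1 to KO3. The means were 2.94% ± 1.02 and 8.93% ± 0.75 (SD, n = 3 each), a difference of 5.99 percentage points. The KO samples all lay above the WT samples. Of the per-length counts of H2A genes, the 5 variants held 3.38% ± 0.94 (WT) and 7.80% ± 0.72 (KO), beside 15 H2AC genes (SD over 3 samples). These shares were described without a test and use the same canonical lengths. Without division by length the differences were 15.9 and 12.4 percentage points.

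**Figure D4:**
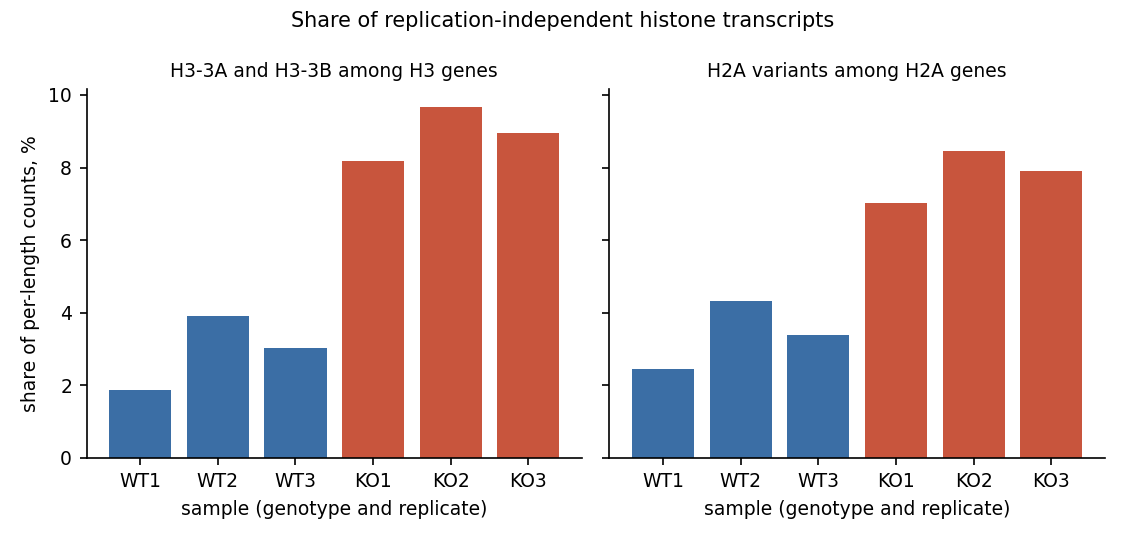
Share (%) of per-length normalized counts that came from H3-3A and H3-3B among H3 genes (left) and from the H2A variants among H2A genes (right), with 1 bar per sample, WT in blue and KO in red. The H3.3 share was 1.88% to 3.92% in WT and 8.18% to 9.68% in KO.

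The genes that place the variants in chromatin were counted from lists made by function. Each count stands beside 24.1% lower and 24.1% higher among all genes tested, whose median log2 fold change was 0.03, and the lists are small. Of 8 genes of H3.3 deposition 5 were higher and 1 lower in KO, with a median log2 fold change of 0.55. The higher ones were the HIRA complex genes UBN1 (1.19), CABIN1 (1.05), UBN2 (0.67) and HIRA (0.56), and ATRX (0.53), the remodeler that acts at telomeres and repeats. ASF1A, the chaperone that hands H3.3 and H4 to HIRA, was lower (−0.90). The remaining pair were DAXX, the chaperone that works with ATRX (0.09, adjusted p = 0.724), and DEK (0.04, adjusted p = 0.926, both by limma).

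Of 16 genes of H2A.Z exchange 6 were higher and 3 lower (24.1% each way among all genes tested), with a median log2 fold change of 0.17. EP400, the ATPase of the TIP60 complex, which loads H2A.Z, had 1.50 and its scaffold TRRAP 1.37. YEATS4 (−1.11) and ZNHIT1 (−1.01), small subunits of the loading complexes, were lower. SRCAP, the other ATPase that loads H2A.Z, was higher (0.69, adjusted p = 0.0258 by limma), though its samples overlapped between genotypes. ANP32E, a chaperone that removes H2A.Z, had −0.02 (adjusted p = 0.95 by limma).

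Of 21 genes of CENP-A deposition and the centromere 11 were lower and 0 higher by limma (24.1% each way among all genes tested). The count of higher genes was also 0 at an unadjusted p under 0.05, and the median log2 fold change was −0.50. The lower ones included CENPS (−1.70), a partner of CENPX, the histone-fold protein gene CENPW (−1.57), ITGB3BP (−1.22), which encodes CENP-R, and OIP5 (−0.86), a subunit of the Mis18 complex, which prepares centromeres for new CENP-A. HJURP, the chaperone that deposits CENP-A, had 0.22 (adjusted p = 0.36 by limma).

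Of 12 genes that write, read or erase H2AX phosphorylation 5 were higher and 1 lower (24.1% each way among all genes tested), with a median log2 fold change of 0.37. MDC1, which binds phosphorylated H2AX, had 1.16, BAZ1B, a kinase for H2AX, 0.99 and TP53BP1, a repair factor recruited downstream, 0.97. NBN, part of the break-sensing MRN complex, was lower (−0.94). The lists differ in transcript length as well: the median canonical transcript was 5248 nt for H3.3 deposition, 1990 nt for H2A.Z exchange, 2494 nt for the centromere list and 6057 nt for H2AX signaling. The part of length in the counts of these lists was not tested.

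**Figure D5:**
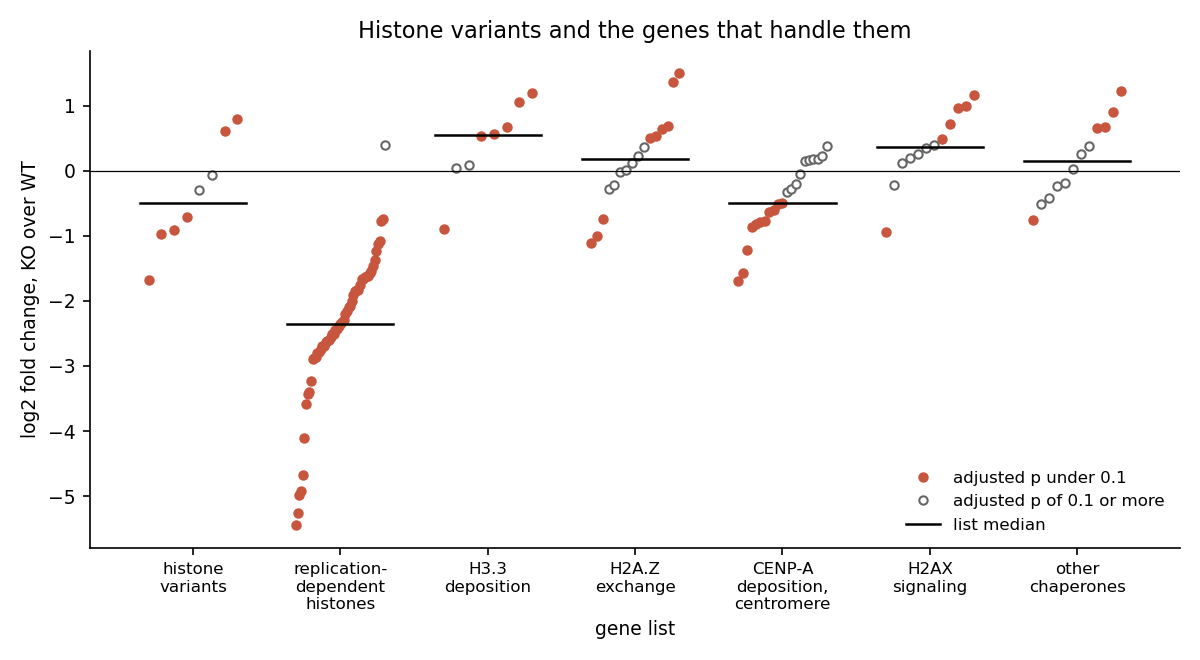
Log2 fold change, KO over WT, of each tested gene of 7 lists, filled where the adjusted p was under 0.1, with the list median as a black line. The medians run from −2.36 for the replication-dependent histones and −0.50 for the variants to 0.55 for H3.3 deposition.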

How the data were processed

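Stranded total RNA libraries from polysome fractions were mapped to GRCh38 and counted per Ensembl gene by the authors. The submitters' processing notes name FastQC 0.11.9, HISAT2 2.2.1, featureCounts 2.0.1 and DESeq2 1.36.0. Of the deposited table, the signal column of each sample was used, which holds gene counts divided by 1 size factor. The table also holds the authors' genotype means, fold changes and p-values, which were not used. In every sample 100% of nonzero values were whole multiples of 1 read (tolerance 1e-06).

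Gene names came from a table matched on 60463 of 60664 gene identifiers. limma 3.58.1 (R 4.3.3) was run on genes with a mean of at least 10 over the 6 samples, on log2(value + 1), with trend and robust shrinkage, genotype as the only term and Benjamini-Hochberg adjustment over all genes tested. The script was tested on simulated data. Ratios of paralogs were compared by exact permutation of samples, adjusted over the pairs that could be computed. The MACROH2A1 and MACROH2A2 pair could not be, for lack of reads. Alternatives were other pseudocounts, filters and scalings, a length correction, a replicate block and leaving out each sample.

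Members and lists were chosen with earlier results of these data known. The text names every member, in each other list up to 4 called genes with the largest absolute log2 fold change and up to 4 that a small count called for, pseudogenes of members with a mean of at least 10, and the 5 genes most like H2AZ1. SRCAP, ANP32E, HJURP, the overlapping genes UNK and SLC35F6, the cell type markers and the genes with a stem-loop shown fall outside it. They were picked once their values were known. The other overlapping genes are named from the annotation. Transcripts and coordinates are those of GENCODE 44 on GRCh38, read with Biopython 1.88. Values of some marker genes are not reported here.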

Additional observations from a re-analysis of the deposited data

How the results depend on the processing

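H2AZ1, H3-3B and CENPA kept their direction and call under all 16 alternatives, with log2 fold changes of −1.88 to −1.36, −1.07 to −0.59 and −1.13 to −0.65. H3-3A did so under 14 of 16, and lost its call with library total scaling (−0.38) and with the length correction joined to the replicate block (−0.39). With these settings 3 variants were lower in place of 4. Leaving out 1 sample at a time left 4 variants lower each time and 0 to 2 higher, with 0 higher by limma without WT3 (1 at an unadjusted p under 0.05) and 1 without KO3. MACROH2A1 then ranged from 0.45 to 0.83, H1-10 from 0.42 to 1.05, H2AZ2 from −0.39 to −0.18, H2AX from −0.32 to 0.22, H2AZ1 from −1.88 to −1.55 and H3-3A from −0.84 to −0.63. The sign of H2AX turned with upper-quartile scaling (0.074), library total scaling (0.26) and the length correction with or without the replicate block (0.15), and that of H2AZ2 with library total scaling (0.026). Shares of H3 and H2A transcripts not divided by length gave 15.9 and 12.4 percentage points. The causes were not tested.

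Deviations of same-numbered samples from their group means correlated at −0.16, −0.19 and −0.27, so the numbers were not taken to pair samples. The replicate block alone changed no call of a variant, with H2AZ1 at −1.68 and H3-3A at −0.71, and gave 3310 genes lower and 3243 higher. Tests on recovered read counts, listed as alternatives, were not run. MACROH2A2 was below the floor of 3 reads in every sample.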

Other observations

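A further list held chaperones that serve replication-dependent and variant histones alike. Of its 12 genes 4 were higher in KO and 1 lower by limma (24.1% each way among all genes tested), with a median log2 fold change of 0.15. SUPT6H, a chaperone that travels with RNA polymerase, had 1.22 and CHAF1A, the large subunit of the replication-coupled assembly factor CAF-1, 0.90. SSRP1 (0.67) and SUPT16H (0.66) encode the subunits of FACT, and NPM1, an abundant nucleolar chaperone, was lower (−0.76).

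Other histone variants were close to absent. Of 17 further variant genes in the table, mostly testis or embryo genes, 11 had 0 reads in all 6 samples, 14 had at most 3 reads in any sample, and none of the 17 passed the filter (0 tested). Of 55 pseudogenes of the variants 43 had 0 reads and 3 were tested. Besides H3P6 and H3P16, H3P31 passed, with means of 13.1 in WT and 42.9 in KO (log2 fold change 1.64, adjusted p = 0.00682 by limma).

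Among the 11369 other genes with a symbol and a mean of at least 100, those whose log2 levels followed H2AZ1 most closely over the 6 samples were H2BC18 (Pearson's r 0.9998), EEF1AKMT4 (0.9996), GTSF1 (0.999), CHCHD7 (0.999) and SNRPG (0.999). Their log2 fold changes were −2.33, −1.75, −1.03, −2.79 and −3.05. These correlations describe 6 samples in 2 groups and mostly follow the difference between genotypes.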
